A study of Mus musculus with 29 samples.

Results

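The nephron progenitor cell (NPC) line derived from mouse kidneys at embryonic day E16.5 was set against 3 other lines, derived at E11.5, at E13.5 and at postnatal day 1 (P1). Each line gave 1 library from passage 20 (P20) and 1 from passage 80 (P80), so 2 libraries of the E16.5 line stood against 6 of the others. Genes were chosen by their measured RPKM in these 8 libraries. A gene was taken when both E16.5 libraries lay above the highest, or both below the lowest, of those 6 values. The rule was applied to RPKM values (reads per kilobase of transcript and per 1 M mapped reads) on the log2(RPKM + 1) scale. It took 3101 of 23918 genes, 1844 higher and 1257 lower in the E16.5 line. Of the 12129 genes that reached 1 RPKM in 2 or more of the 8 line libraries and were thus tested, 1392 (11.48%) were higher, 1070 (8.82%) were lower and 20.3% were one or the other. These shares are the background against which counts in gene lists are read below. A gene could pass the filter through the 2 E16.5 libraries alone, so genes high in that line were favoured. The values that chose the genes are given as a description, and nothing is read from a test on them.

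The study compared primary NPCs with NPCs kept in culture over many passages. All lines were kept as aggregates in the medium NPSR and were labelled as a hybrid of C57BL/6 and 129 mice carrying the Six2-GCE allele, as were the freshly isolated (primary) NPCs, which had 2 libraries for each of the same 4 ages. A pair of libraries each from E12.5 primary NPCs and from Six2-negative cells had no line of that age beside them and entered no test, and ranges over 8 primary libraries leave them out. In Six2-GCE mice the Six2 gene, which is active in these progenitors, expresses GFP joined to a Cre that an added drug switches on. Each age is represented by 1 line, so an effect of the age of origin and a property of that single line cannot be told apart. The P1 line at P20 stood apart from the other 5 libraries and lay near the E16.5 line in many genes, so counts of gene lists that it moves by over 1.5 times are given with and without it. Whether its label and culture are as stated was not tested. A further 9 libraries, labelled total RNA and not poly(A) RNA, came from E13.5 cultures after removal of heparin, the ROCK inhibitor Y27632, BMP7, the GSK3 inhibitor CHIR or LIF from the medium.

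Nephron progenitors are the cap mesenchyme cells that surround the tips of the branching ureteric bud, and they either renew themselves or turn into the epithelium of the nephron. Their supply ends soon after birth in the mouse, and older progenitors renew less readily than younger ones. Lin28 proteins bind the precursors of the let-7 microRNAs and block their maturation. Mature let-7 pairs through its seed with sites in the 3′ untranslated region (3′ UTR) of messages for fetal growth genes and lowers their output. Several such growth genes, and Igf2 with H19, which are imprinted and expressed from one parental copy, are high in the embryo and decline as organs mature.

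Lin28a, the lower gene farthest outside the range, belongs to this axis, and the sequences that define the axis are shown first. The mature let-7 sequences are from RefSeq (GRCm38.p6), with the seed, bases 2 to 8, in capitals. All but 1 of the 10 mouse let-7 sequences matched share the seed GAGGUAG, and let-7j has GAGGUAU.
mmu-let-7a-5p: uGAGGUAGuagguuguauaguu
mmu-let-7i-5p: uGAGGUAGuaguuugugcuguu
mmu-let-7j: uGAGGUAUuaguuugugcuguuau
The sites below are from the 3′ UTRs of 5 genes that were lower in the E16.5 line (GENCODE M1 transcripts, mm9). The 8 letters in capitals, CTACCTCA, pair with the seed and the base before it, and the coordinates are those of the 8 letters. The letters did not fully separate the lower tested genes of this axis from the rest. Igf2bp2, also lower, has 1 match, while E2f5 and Dicer1 were lower and have 0 matches. Igf2bp3 (1 match) holds the letters and was within the range, as were Hmga1, Mycn and Plagl2 with 0 matches. Lin28b (1) and Trim71 (2) hold them but were not tested, since neither reached 1 RPKM in 2 line libraries.
Lin28a (chr4:133561104-133561111, minus strand): cacagcctgttgaaCTACCTCAtttt
Lin28a (chr4:133560466-133560473, minus strand): agatcgccacaaacCTACCTCActgt
Igf2bp1 (chr11:95823092-95823099, minus strand): ctgtgcgaagtaaaCTACCTCAaggt
Hmga2 (chr10:119801280-119801287, minus strand): ccgacattcaatttCTACCTCAgcat
Arid3b (chr9:57640371-57640378, minus strand): ctgctcaccaagtcCTACCTCAtccc
Igdcc3 (chr9:65033529-65033536, plus strand): gtgactctcagcacCTACCTCAgccg

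Lin28a, which encodes a let-7 inhibitor, stood at 1.07 RPKM at P20 and 1.16 RPKM at P80 in the E16.5 line, against 19.2 to 49.1 RPKM (median 28) in the 6 others. The groups were far apart, and the nearest of the 6 was the P1 line at P20. The log2 difference was -3.76 ± 0.31 (SE) on the log2(RPKM + 1) scale, which understates the change of genes with low values. Hmga2, a chromatin protein of fetal growth, was at 33.8 and 51.6 RPKM in the E16.5 line (P20 and P80) and at 104 to 251 RPKM (median 187) in the others. Igf2bp1, which binds and stabilises messages such as that of Igf2, was at 8.51 and 8.45 RPKM against 18.6 to 25.9 RPKM (median 22.4). Arid3b, a DNA-binding protein, was at 1.82 and 1.77 RPKM against 5.68 to 8.93 RPKM (median 7.05). In each of these genes both E16.5 libraries lay below all 6 others, and the P20 and P80 values of the line were alike except in Hmga2. Igf2bp2, Igdcc3, E2f5 and Dicer1 were outside the range too, by smaller distances (log2 0.06 for E2f5 to 0.45 for Igf2bp2). Of the 12 tested genes in the Lin28 and let-7 list, 8 (66.7%) were below the range, none was above it (the same counts without the P1 line at P20), all 12 had a mean below that of the other lines, and the median log2 difference was -1.02 against 0.00575 over all genes tested. The 4 others, Hmga1 and Igf2bp3 among them, lay within the range. Lin28b, the second Lin28 gene, did not pass the filter on low values and was listed at 0 and 0 RPKM in the E16.5 line and at no more than 0.043 RPKM in the others.

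In primary NPCs, which the rule did not use, Lin28a was low at every age. It was at 1.92 and 2.58 RPKM at E11.5, 3.20 and 2.68 RPKM at E12.5, 0.569 and 1.27 RPKM at E13.5, 0 and 0 RPKM at E16.5 and 0.012 and 0 RPKM at P1, so that E12.5 was highest and E16.5 and P1 were at or near 0. The level of the E16.5 line lay between the 2 E13.5 primary libraries, and the 6 other line libraries lay above every primary library. Hmga2 was at 106 and 119 RPKM in E11.5 primary cells and at 26.3 and 49.5 RPKM in those of E16.5. The E16.5 line (33.8 and 51.6 RPKM) was near the latter. Of the other lines, only the P1 line at P20 (104 RPKM) was close to the former. The remaining line libraries, at 172 to 251 RPKM, lay above both E11.5 primary libraries, and E12.5 primary cells were at 166 and 215 RPKM. In P1 primary cells Hmga2 was at 30.0 and 30.8 RPKM, while the P1 line was at 104 and 210 RPKM (P20 and P80).

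**Figure D1:**
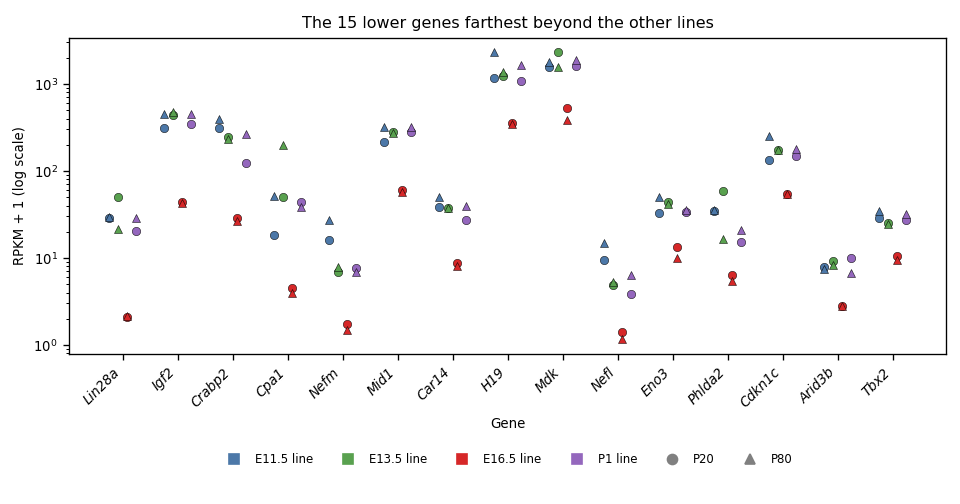
RPKM + 1 on a log axis in the 8 line libraries for the 15 lower genes farthest beyond the range of the other lines, 1 point per library, with circles for P20, triangles for P80 and 1 colour per line. Both red points of the E16.5 line lie below all 6 others in every gene, with the widest gap in Lin28a.

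The let-7 site letters were then searched in the 3′ UTR of every tested gene that had one in the annotation, which held for 10825 of 12129. The letters CTACCTCA were in the 3′ UTR of 3.6% of all these genes, of 7.51% of the lower genes (74 of 986) and of 2.44% of the higher genes (30 of 1232). The share that was lower in the E16.5 line rose with the number of matches, from 8.74% of 10435 genes with none to 17.6% of 374 genes with 1 and 50% of 16 genes with 2 or more. Those 8 genes were G3bp1, Hif1an, Igdcc3, Igf2bp1, Lin28a, Mettl6, Zc3hav1l and Zfp473, and 5 of them were not in the Lin28 and let-7 list, which holds 3 of the 16. The reverse letters, TGAGGTAG, read on the same strand of the same 3′ UTRs, were taken for comparison. By number of matches, 9.05% of 10543 genes with no TGAGGTAG and 10.9% of 276 genes with 1 were lower. Of the 6 genes with 2 or more, 2 were lower and 2 were higher. Of 282 genes with at least 1 TGAGGTAG, 11.3% were lower and 11.7% were higher, whereas 19% of the 390 genes with CTACCTCA were lower and 7.69% were higher. Genes with matches have longer 3′ UTRs (a median of 3966 bases with 2 or more matches, 2240 with 1 and 1113 with none). Among 3′ UTRs of 1000 to 3000 bases, 17.5% of 189 genes with CTACCTCA were lower, against 9.53% of 4258 without. Only 6 genes of that length had 2 or more matches, of which 2 were lower, with a median log2 difference of 0.0652. The same rule applied to the other lines gave CTACCTCA in 3.41% of 616 lower genes of the E11.5 line, 1.69% of 177 of the E13.5 line and 6.25% of 96 of the P1 line. A match is a description of letters and not of a working site, and let-7 itself was not measured by these libraries. The shares rest on the values that chose the genes, so they are a description, and let-7 as a cause was not tested.

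**Figure D2:**
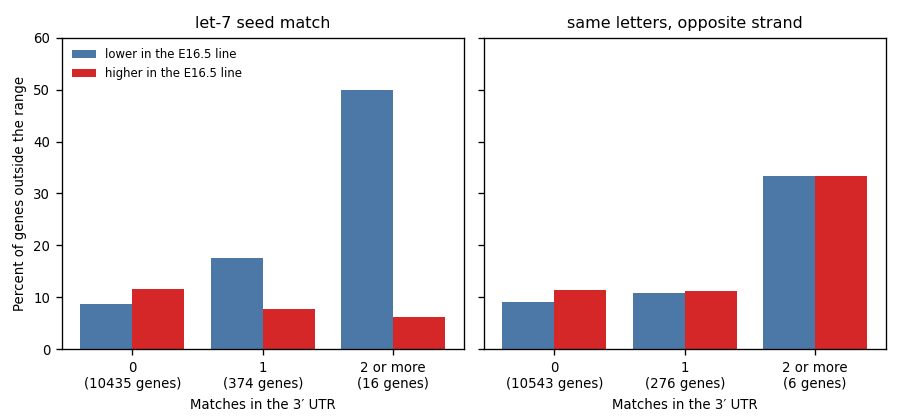
Percent of tested genes that lay below (blue) or above (red) the range of the other lines, by the number of let-7 seed matches in the 3′ UTR (left) and of the same letters on the opposite strand (right), with the number of genes under each pair of bars. For let-7 matches the lower share goes from 8.74% to 17.6% to 50% while the higher share goes from 11.52% to 7.75% to 6.25%, and the right-hand bars at 2 or more rest on 6 genes.

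Imprinted genes, many of which set fetal growth, were the other large lower group. Of 28 tested, 13 (46.4%) were below the range, none was above it, and 26 had a mean below that of the other lines, with a median log2 difference of -0.727. Without the P1 line at P20, 16 were below and 0 above. Igf2, the fetal growth factor, was at 43.1 and 42.0 RPKM in the E16.5 line (P20 and P80) against 313 to 473 RPKM (median 443), a log2 difference of -3.23 ± 0.14 (SE). H19, the non-coding RNA that shares its enhancers with Igf2 on chromosome 7, was at 354 and 344 RPKM against 1082 to 2323 RPKM (median 1293). Neither group overlapped the other in these 2 genes, which are expressed from opposite parental copies. Igf2os, which lies antisense to Igf2, was at 0.748 and 0.7003 RPKM against 4.14 to 6.10 RPKM (median 4.58), and reads of the 2 strands cannot be told apart because no strand setting is given.

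Farther along chromosome 7, Cdkn1c, a brake on the cell cycle, was at 54.0 and 52.8 RPKM against 131 to 249 RPKM (median 173). Its neighbour Phlda2, which limits placental growth, was at 5.32 and 4.42 RPKM against 14.3 to 58 RPKM (median 26.96). Both were below the range, whereas Kcnq1ot1, the non-coding RNA of that region, was under the filter at 0.184 and 0.317 RPKM. On chromosome 6, Asb4 was close to 0 in the E16.5 line, at 0.108 and 0.138 RPKM, against 1.06 to 150.1 RPKM (median 60.9). The lowest of those 6 was again the P1 line at P20, and the next lowest was the E13.5 line at P20 with 22.9 RPKM. Peg10, in the same chromosome 6 region, was at 25.2 and 33.4 RPKM against 45.2 to 156 RPKM (median 85.2), while Sgce beside it was within the range at 30.6 and 30.3 RPKM against 16.7 to 42.6 RPKM (median 33.2). Peg3 and Zim1, a pair of zinc finger genes, were both below the range, at 2.11 and 2.84 RPKM against 5.09 to 11.1 RPKM (median 9.56) for Peg3. Mest, Magel2, Dlk1, Grb10 and Igf2r were the rest of the 13. Ndn, Nnat and Meg3 were within it, so the lower levels did not extend to all imprinted genes tested. Meg3 ranged from 0.163 to 45.2 RPKM among the 6 others and was at 9.25 and 8.52 RPKM in the E16.5 line.

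Of the imprinted genes, Igf2, H19 and Cdkn1c were followed in primary NPCs. Igf2 was at 514 and 517 RPKM at E11.5, 527 and 348 RPKM at E16.5 and 149 and 202 RPKM at P1, so that the E16.5 line, at 43.1 and 42.0 RPKM, was below all 8 primary libraries. H19 was at 1751 and 1557 RPKM in E16.5 primary cells and 572 and 1129.9 RPKM at P1, also above the line. Cdkn1c was at 590.2 and 591 RPKM at E11.5 and 72.2 and 76.4 RPKM at P1, where it came nearest to the 54.0 and 52.8 RPKM of the line.

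The other lower genes named had varied roles. Crabp2, which carries retinoic acid to its receptors, was at 28.04 and 25.4 RPKM (P20 and P80) against 122 to 389 RPKM (median 252). Stra6, the receptor that takes up retinol, was at 2.60 and 1.60 RPKM against 4.77 to 8.53 RPKM (median 6.26). Of 10 tested genes of the retinoic acid pathway, Crabp2, Stra6 and Rarb were below the range, and 5 were below it without the P1 line at P20. Mdk, the secreted growth factor midkine, was at 523 and 385 RPKM against 1549 to 2328 RPKM (median 1696), with no overlap. Cpa1, a carboxypeptidase known from the pancreas, was at 3.46 and 2.91 RPKM against 17.1 to 199 RPKM (median 46.3), the widest spread among the others, as a ratio of highest to lowest, of any gene in this paragraph. Mid1, an X-linked ubiquitin ligase, was at 59.7 and 56.8 RPKM against 214 to 321 RPKM (median 279.6). The carbonic anhydrase Car14 was at 7.80 and 7.04 RPKM against 26.5 to 49.2 RPKM (median 37.3), and the glycolytic enzyme Eno3 was at 12.48 and 8.93 RPKM against 31.8 to 48.9 RPKM (median 38.1). Tbx2, a T-box repressor, was at 9.59 and 8.36 RPKM against 23.6 to 33.3 RPKM (median 27.1). In all of these both passages of the E16.5 line were below every other library.

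Nefm and Nefl, neurofilament subunits, were near 0 in the E16.5 line. Nefm was at 0.744 and 0.467 RPKM against 5.95 to 26.2 RPKM (median 6.73), and Nefl at 0.418 and 0.157 RPKM against 2.88 to 13.8 RPKM (median 4.81). The 2 genes overlap on chromosome 14 on opposite strands in the annotation, so their values may share reads. Tubb3, a neuronal tubulin, was also below the range. Of 7 tested markers of neurons and glia, these 3 were below the range, and 5 were below it without the P1 line at P20. Car14 and Mdk each overlap another gene of the table as well, Aph1a and Chrm4.

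Higher and lower genes lay about equally far beyond the range, apart from the few farthest genes. At least 1 log2 unit beyond it lay 12 higher genes (0.0989% of genes tested) and 23 lower genes (0.190%). Small RNA genes, for which RPKM is unreliable, made up 4 of the 12 and 1 of the 23. Without the P1 line at P20 the order turned, with 178 higher and 103 lower genes at that distance. The median distance beyond the nearest other library was 0.115 for all 1392 higher and 0.119 for all 1070 lower genes. At the edge, Gmeb1 lay 6.14e-05 log2 units outside the range and Tspan31 lay inside it, at a signed distance of -7.49e-05.

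Mageh1, a member of the MAGE family on the X chromosome, led the higher genes. It was at 8.38 and 7.93 RPKM (P20 and P80) against 0.265 to 1.60 RPKM (median 0.793), while all 8 primary libraries were at 24.4 to 33.8 RPKM. The E16.5 line thus lay between the other lines and the primary cells. Mmp12, a metalloprotease known from macrophages, was at 20.03 and 24.7 RPKM against 3.18 to 8.96 RPKM (median 3.68), and no primary library exceeded 0.111 RPKM.

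A nuclear receptor was among the leading genes. Vdr, the vitamin D receptor, was at 14.5 and 14.7 RPKM against 1.71 to 6.79 RPKM (median 3.11). The highest of the 6 others was the P1 line at P20. C1ql4, a secreted C1q-like protein, was at 95.9 and 61.7 RPKM against 3.88 to 35.3 RPKM (median 4.40), where the P1 line at P20, at 35.3 RPKM, stood far from the other 5. The annexin Anxa8, the protease Ctsc, the carbonyl reductase Cbr2, the tyrosine-degrading enzyme Fah, Pcp4l1, Dnajc22, Tmem150c and Utp14b were also among the first 15, with distances of 0.77 (Fah) to 1.02 (Anxa8) log2 units beyond the range. Mmp12 and Utp14b overlap other genes of the table (Mmp1b and Acsl3).

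**Figure D3:**
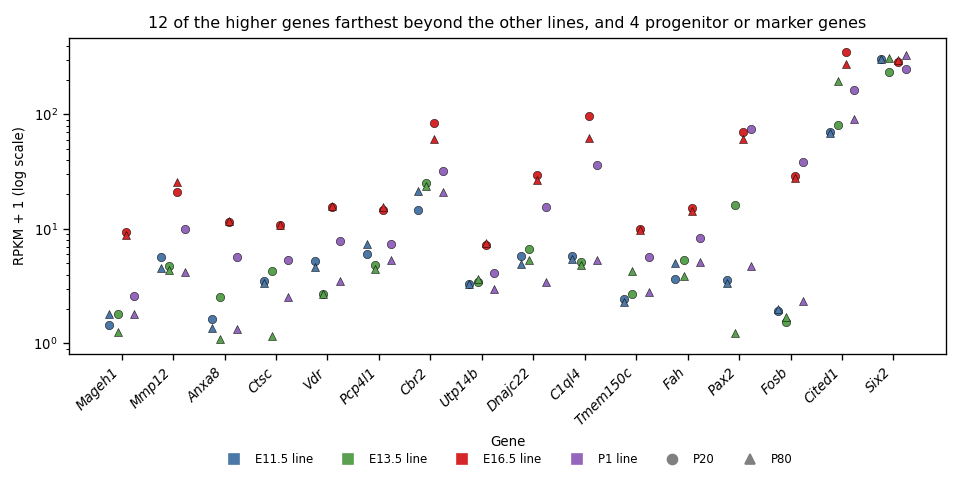
RPKM + 1 on a log axis in the 8 line libraries for 12 of the 15 higher genes farthest beyond the other lines and for Pax2, Fosb, Cited1 and Six2, 1 point per library, with circles for P20 and triangles for P80. In most genes the highest point other than red is the P1 line at P20 (violet circle), which in Pax2 and Fosb reaches the E16.5 line.

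The genes Pax2, Nr2f1 and Fosb had been given as markers of this line, and 1 of the 3 met the rule. Pax2, a transcription factor needed for progenitors to become nephrons, was at 69.7 and 59.7 RPKM in the E16.5 line. It was at 2.57 and 2.39 RPKM in the E11.5 line and at 15.1 and 0.241 RPKM in the E13.5 line (P20 and P80). The P1 line had 73.3 RPKM at P20 and 3.77 RPKM at P80, so Pax2 was not outside the range. Fosb, an immediate-early gene of the AP-1 family, had the same pattern, with 28.2 and 26.97 RPKM in the E16.5 line, 37.2 RPKM in the P1 line at P20 and at most 1.33 RPKM in the other 5. Nr2f1, an orphan nuclear receptor, was outside the range, but at 0.862 and 0.931 RPKM against 0 to 0.05 RPKM it failed the filter on low values. The 8 primary libraries of the line ages had 15.3 to 32.2 RPKM of Nr2f1, 68.6 to 161 RPKM of Pax2 and 127 to 359 RPKM of Fosb. The E12.5 primary libraries had more Nr2f1 than any of these 8, at 42.7 and 41.3 RPKM.

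Progenitor identity genes were present. Six2, which keeps progenitors undifferentiated, was at 284 and 298 RPKM in the E16.5 line and 233 to 329 RPKM (median 304) in the others, with overlap. Cited1, a transcriptional cofactor that marks the least committed progenitors, was at 350.3 and 274 RPKM against 67.8 to 194 RPKM (median 85.1), and E16.5 primary cells were at 320.0 and 349 RPKM. Eya1, Osr1 and Wt1 were within the range of the other lines, and Meox1 was low in all lines, at 0.4996 and 0.212 RPKM in the E16.5 line. Of 23 tested cap mesenchyme genes, 6 (26.1%) were above the range and 3 (13%) below, with a median log2 difference of 0.0605, and without the P1 line at P20 the counts were 8 and 3. The 6 were Sall1, Cited1, Gdnf, Crym, Itga8 and Tmem100, and Gdnf, the signal that draws the ureteric bud into the mesenchyme, was at 85.2 and 81.0 RPKM against 42.4 to 72.4 RPKM (median 58.5). Meox2, at 4.16 and 4.99 RPKM against 6.35 to 69.0 RPKM (median 66.0), was among the lower 3, as was Crabp2. In its case too the nearest value was that of the P1 line at P20.

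The nearness of the P1 line at P20 to the E16.5 line showed across the transcriptome. Over the 12129 genes its Pearson correlation with the E16.5 line at P20 was 0.9578, against 0.9564 between the 2 passages of the E16.5 line and 0.9208 between the 2 passages of the P1 line. Its correlation with the E16.5 line at P80 was lower, at 0.9451, and close to that with the E13.5 line at P20, 0.9435. The P1 line at P20 was the highest of the 6 for 61.9% of the higher genes (32.2% of all genes) and the lowest for 52.1% of the lower genes (27.8% of all genes). Without this library 281 genes lay at least 1 log2 unit beyond the range, 178 higher and 103 lower, where 35 did so with it. On a scale where 0 is the mean of the 5 others and 1 the mean of the E16.5 line, the P1 line at P20 had a median position of 0.8 in these 281 genes, with quartiles of 0.584 and 0.989, and 78.3% of them were at 0.5 or above. Yet 194 of the 281 remained outside the range of all 6. Without this library 21.1% of all genes tested lay above and 16.3% below the range of the 5 others, and list counts without it are read against these shares.

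Some genes, chosen after their values were seen, show both sides of this. Pcp4, a small calmodulin-binding protein, was at 503 and 559.9 RPKM in the E16.5 line, 353 RPKM in the P1 line at P20 and at most 8.46 RPKM in the other 5. Wfdc2, a protease inhibitor of epithelia, was at 777 and 629, at 683 and at most 90.0 RPKM in the same order. By contrast the P1 line at P20 resembled the other lines in Lin28a (19.2 RPKM), Igf2 (348 RPKM) and Mid1 (277 RPKM). The Y-linked gene Eif2s3y was at 7.85 and 12.9 RPKM in the E16.5 line (P20 and P80) and at 0.523 and 0.038 RPKM in the P1 line. In this gene the P1 line at P20 did not have the level of the E16.5 line. Eif2s3y also parted the 2 passages of the E13.5 line, with 13.9 RPKM at P20 and 0.029 RPKM at P80. The part of mixed cells or of a shared state in these patterns was not tested.

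**Figure D4:**
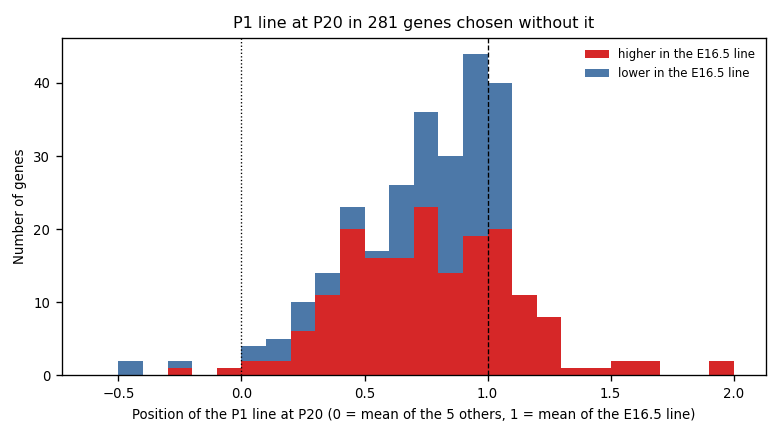
Number of genes by the position of the P1 line at P20, for the 281 genes in which the E16.5 line lay at least 1 log2 unit beyond the 5 other line libraries, where 0 (dotted) is the mean of those 5 and 1 (dashed) the mean of the E16.5 line. Most genes lie nearer to 1 than to 0, with a median of 0.8, and positions outside the axis are drawn in its end bins.

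Depth estimated from the spacing of low values was 10.8 M reads at P20 and 19.3 M reads at P80 for the E16.5 line and 6.5 to 24.6 M reads over all 8 line libraries, the lowest being the P1 line at P20. For a transcript of 2 kb this put 1 RPKM at 13 to 49.2 reads. Markers of endothelium, macrophages and red cells were mostly under 1 RPKM in the E16.5 line. All 10 endothelial markers were under 1 RPKM in both E16.5 libraries and summed to 1.53 and 1.32 RPKM, against 1.69 to 15.8 RPKM in the other lines. For macrophages 9 of 11 and for red cells 9 of 10 markers were under 1 RPKM, with 4 at 0 in each list. Ureteric bud markers summed to 937 and 756 RPKM, against 83.1 to 783 RPKM in the others, of which Wfdc2 made up most, and 10 of 16 were under 1 RPKM. The ureteric keratin Krt19 was at 121 and 94.1 RPKM in the E16.5 line against 45.5 to 87.1 RPKM (median 67.6), above all 6. Podocyte markers, which include genes that progenitors express, summed to 326 and 299 RPKM against 292 to 388 RPKM in the others. The part of such cells in the results was not tested. In bulk RNA, fewer cells of a type and less RNA per cell cannot be told apart.

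Hox genes, which give cells their position along the body axis, were mostly higher in the Hoxa, Hoxb and Hoxc clusters. Of 34 tested, 14 (41.2%) were above the range and 2 (5.88%) below, with a median log2 difference of 0.444. By cluster, 5 of 10 Hoxa, 6 of 8 Hoxb, 3 of 7 Hoxc and 0 of 9 Hoxd genes were above it. Hoxb6 was at 32.5 and 26.8 RPKM (P20 and P80) against 4.196 to 17.7 RPKM (median 6.49), and primary cells were at 54.2 to 131 RPKM. Hoxc9 was at 29.02 and 30.8 RPKM against 12.01 to 19.4 RPKM (median 14.8). The Hoxd cluster had a median log2 difference of -0.433, and Hoxd13, the last gene of the cluster, was at 0.073 and 0.145 RPKM against 0.478 to 15.2 RPKM (median 6.31). Without the P1 line at P20, 17 Hox genes were above and 7 below the range of the 5 others, where 21.1% and 16.3% of all genes were. Hoxa3 overlaps both Hoxa2 and Hoxa5 in the annotation.

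Immediate-early genes, which respond within minutes to growth signals and to handling, were higher. Of 24 tested, 7 (29.2%) were above the range and 21 had a higher mean, with a median log2 difference of 0.794. Klf4, a zinc finger factor, was at 14.7 and 15.9 RPKM against 0.653 to 11.2 RPKM (median 1.35). Egr1 was at 141 and 154 RPKM against 10.1 to 112 RPKM (median 67.6), and Fos, the partner of Jun in AP-1, at 166 and 169.6 RPKM against 6.62 to 157 RPKM (median 33.1). In all 3 the highest of the others was the P1 line at P20. Without it, 17 of 24 (70.8%) were above the range of the 5 others and 0 below.

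Genes of antigen presentation were also higher. Of 13 tested MHC class I and processing genes, 5 (38.5%) were above the range and none below, with a median log2 difference of 0.678, and 8 (61.5%) were above the range without the P1 line at P20. H2-D1, a class I heavy chain, was at 16.2 and 13.53 RPKM against 3.58 to 9.24 RPKM (median 3.88), and Tapbp, which loads peptides, at 24.8 and 24.1 RPKM against 9.82 to 19.6 RPKM (median 11.03). Class I genes are near-identical copies in places, so reads may be split between them, and Tapbp and Psmb9 overlap other genes of the table. Of 11 tested interferon response genes, 3 were above the range (Irf9, Oasl2 and Rtp4), and without the P1 line at P20, 4 were above and 1 below. Oasl2 (at most 0.911 RPKM in the other lines), Rtp4 (0.926) and Psmb9 (0.678) reached 1 RPKM only in the E16.5 line. Tap2 did so there and in the P1 line at P20 (1.01 RPKM). These 4 genes passed the filter only through the E16.5 line, which raises the counts above the range in both lists.

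Matrix and adhesion genes gave a smaller excess. Of 22 tested integrins and basement membrane genes, 5 (22.7%) were above the range and none below, but without the P1 line at P20, 9 (40.9%) were above and 4 (18.2%) below. Lamc1, the common laminin gamma chain, was at 165 and 159 RPKM against 57.9 to 102 RPKM (median 73.5), and Itga8, the progenitor receptor for nephronectin, at 29.6 and 39.96 RPKM against 6.72 to 24.9 RPKM (median 11.1). Among secreted signals, Fgf9, a growth factor that maintains progenitors, was at 21.9 and 25.8 RPKM against 1.49 to 18.4 RPKM (median 2.16), where the P1 line at P20 was the highest and the other 5 were at most 2.28 RPKM. Nog, the BMP antagonist noggin, was at 43.02 and 49.9 RPKM against 8.33 to 26.5 RPKM (median 13.7). Of 11 tested Notch pathway genes, Notch2, Lfng and Nrarp were above and Notch3 was below the range. Without the P1 line at P20, 7 of the 11 (63.6%) were above and 2 below. Lfng, which modifies Notch receptors, was at 19.6 and 16.7 RPKM against 8.17 to 12.8 RPKM (median 8.86).

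Cell cycle genes were slightly lower. Of 27 tested, 9 (33.3%) were below the range, none was above it and 24 had a lower mean, with a median log2 difference of -0.277, and 14 (51.9%) were below it without the P1 line at P20. Rrm2, a subunit of ribonucleotide reductase, was at 65.3 and 71.1 RPKM against 102 to 128 RPKM (median 118), and the mitotic kinase Aurka at 59.97 and 57.7 RPKM against 75.1 to 92.5 RPKM (median 83.5). Myc, the growth-promoting factor, was at 16.6 and 14.5 RPKM against 22.1 to 31.5 RPKM (median 28.5). Stromal genes were lower too, with 3 of 11 tested below the range and a median log2 difference of -0.965, and 5 (45.5%) were below it without the P1 line at P20. Col1a2, a fibrillar collagen, was at 0.389 and 0.401 RPKM against 1.08 to 24.9 RPKM (median 5.95), and Postn, a matrix protein, at 0.443 and 0.720 RPKM against 0.995 to 31.5 RPKM (median 15.9). The stromal transcription factor Foxd1 was under the filter in the lines, at 0.370 and 0.438 RPKM in the E16.5 line. The 19 stromal markers of the table summed to 68.8 and 75.1 RPKM in the E16.5 line and to 61.5 to 194 RPKM in the others, and their part in these results was not tested.

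The remaining lists are given by their counts. Of 27 glycolysis and hypoxia genes, 1 was above and 2 below the range. The lists of 16 Wnt, 14 LIF and STAT3, 15 FGF and ERK, 14 BMP and TGF-beta and 19 cholesterol synthesis genes had between 0 and 2 genes above and between 1 and 2 below. Early nephron differentiation had 2 above (Pax8 and Cdh6) and 2 below (Bmp4 and Sox9) of 12, and p53 targets had 3 above of 20. Without the P1 line at P20, 7 of the 12 early nephron genes (58.3%) were above the range of the 5 others and 2 (16.7%) below, where 21.1% and 16.3% of all genes were. In the same way the counts above and below became 5 and 2 for the Wnt, 3 and 2 for the LIF and STAT3, 5 and 4 for the FGF and ERK and 5 and 4 for the BMP and TGF-beta lists. They became 6 and 0 for p53 targets and 4 and 0 for FGF ligands and receptors. Cadherins, with 3 above (37.5%) and 1 below of 8, had a larger share outside the range than all genes tested. Of the 3, Cdh22 passed the filter only through the E16.5 line, since beside it only the P1 line at P20 reached 1 RPKM (1.01). FGF ligands and receptors had 1 above of 12, orphan nuclear receptors and Fox factors 1 above and 1 below of 9, and sex chromosome genes 1 below of 9. Lists with few tested genes were those of podocytes (0 of 5 outside), ureteric bud (1 above and 1 below of 6), tubule (1 above of 3), endothelium (1 below of 1), macrophages (0 of 2), red cells (0 of 2), skeletal muscle (2 below of 4, or 50%), germline genes (0 of 1) and genes that differ between C57BL/6 and 129 mice (0 of 2). In these lists, cadherins and the glycolysis, cholesterol, nuclear receptor and sex chromosome lists, leaving out the P1 line at P20 moved each count by at most 1 gene.

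**Figure D5:**
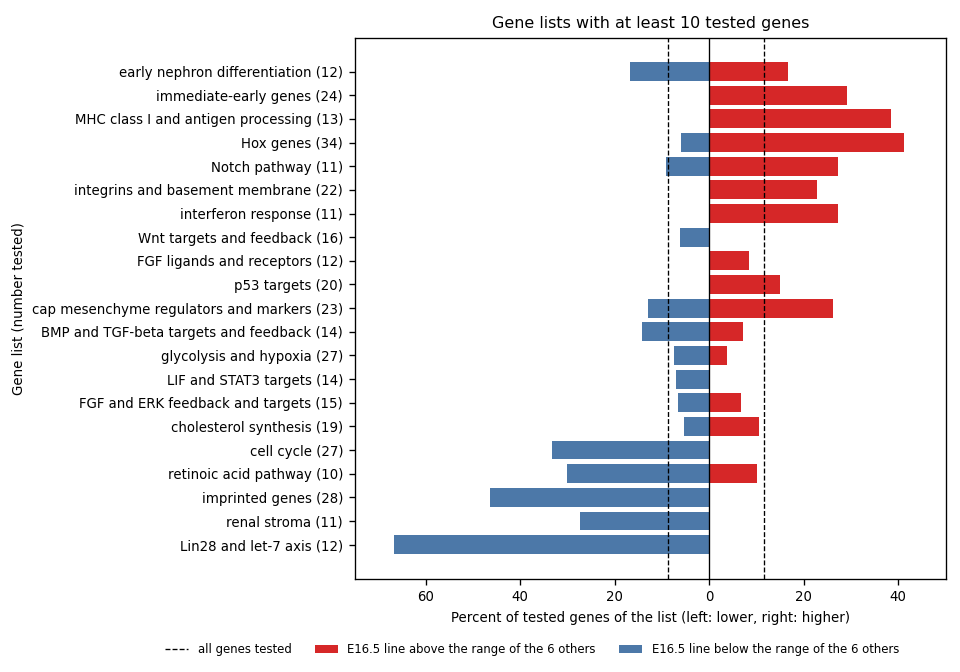
Percent of the tested genes of each list that lay below (blue, left) or above (red, right) the range of the other lines, for lists with at least 10 tested genes, ordered by median log2 difference. Dashed lines mark all genes tested, 8.82% lower and 11.48% higher, and the bars longest beyond them are the Lin28 and let-7, imprinted and cell cycle lists on the left and the Hox and MHC class I lists on the right.

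The difference was then read separately in the 2 passages. At P20, 40 genes of the E16.5 line lay at least 1 log2 unit above and 46 at least 1 below the nearest of the 3 other lines. At P80, 28 of the 40 (70%) were again above all 3 other lines, where 39.35% of all genes were, and 34 of the 46 (73.9%) were again below, where 36.52% of all genes were. In each direction 2 genes were on the opposite side. The 2 passages carry the same line label and all 8 libraries entered the filter. These shares are thus a description and not independent support. Among the 1392 higher and 1070 lower genes, 5 and 1 changed by at least 1 log2 unit between the passages of the line, which is partly fixed by the rule since both passages had to lie on the same side.

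With 6 libraries on one side, the E16.5 line had more outlying genes than any other line under the same rule. The E11.5 line had 990 tested genes outside the range of its 6 others (316 higher, 674 lower), the E13.5 line 393 and the P1 line 277, against 2462 for the E16.5 line. Most of these lay just outside, since 35 in the E16.5 line, 7 in the E11.5 line, 0 in the E13.5 line and 3 in the P1 line lay at least 1 log2 unit beyond. The closeness of the 2 passages of a line enters these counts, and the P1 line had passages that differed. A limma fit of the E16.5 line against the other lines across the 12129 genes, with passage as a term, called 70 genes (0.577%), 32 higher (0.264%) and 38 lower (0.313%), at an adjusted p under 0.05. This fit used the libraries and the contrast that chose the genes, so its counts describe these 8 libraries and are no test of the genes. The same fit without the P1 line at P20 called 1411 and 1000. Without any 1 of the other 7 libraries it called 1 to 34 higher and 4 to 36 lower, and the fewest higher genes without the E16.5 line at P20. The study's design text names both passages as those of each line, but how they were taken is not stated, so the spread behind these calls is between libraries and not between lines. Whether the passages of the E13.5 line, which differ in Eif2s3y, came from one culture was not tested.

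Primary cells of E16.5 offered a comparison that the rule did not use. Against the mean of the 3 other primary ages, limma called 8 of 13130 genes (0.0609%), 3 higher (0.0228%) and 5 lower (0.0381%), and 5 of the 8 were microRNA precursors. Of the 1332 higher genes tested there, none was called, and 153 (11.49%) were higher at an unadjusted p under 0.05, where 5.29% of all genes were. Of the 1005 lower genes, 1 was called lower, and 52 (5.17%) were lower at an unadjusted p under 0.05, where 2.08% of all genes were. The called gene was Cyp27a1, a sterol hydroxylase, which was at 5.95 and 5.83 RPKM at E16.5, 21.7 and 19.1 RPKM at E11.5, 13.7 and 12.9 RPKM at E13.5 and 11.8 and 10.3 RPKM at P1. The log2 difference was -1.16 ± 0.11 (SE), with an adjusted p of 0.0452 by limma, and the call was lost in 9 of 15 alternative settings.

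Since P1 cells are older than E16.5 cells, the contrast was repeated against E11.5 and E13.5 alone, a choice made after the data were seen. Here limma called 55 genes higher (0.419%) and 15 lower (0.114%). Of the 1332 higher genes of the E16.5 line, 9 (0.676%) were called higher and none lower. Of the 1005 lower genes, 8 (0.796%) were among the 15 genes called lower, and 1 was called higher. At an unadjusted p under 0.05, 193 lower genes (19.2%) were lower, where 4.58% of all genes were, and 363 higher genes (27.3%) were higher, where 11.25% of all genes were. The median log2 difference in primary cells was -0.159 for the lower and 0.239 for the higher genes, against 0.0282 for all genes. Among the 22 lower genes tested that lay at least 1 log2 unit beyond the range, 17 had a lower mean in E16.5 primary cells and 4 were called. Without the P1 line at P20, 85 lower genes at that distance were tested, of which 43 had a lower and 42 a higher mean. Of the 159 higher genes so chosen and tested, 130 had a higher and 29 a lower mean.

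The 8 genes lower both in the line and in E16.5 primary cells were Arid3b, Cyp27a1, Dusp9, Fignl2, Cpa1, Igf2bp1, Crmp1 and Igdcc3. Arid3b went from 20.8 and 18.7 RPKM at E11.5 to 3.65 and 4.38 RPKM at E16.5, a log2 difference of -1.87 ± 0.17 (SE) from the 2 earlier ages with an adjusted p of 0.0142 by limma. Igf2bp1 went from 28.5 and 27.2 to 9.44 and 11.7 RPKM (adjusted p 0.0285 by limma), and Igdcc3 from 11.4 and 12.97 to 1.31 and 1.19 RPKM (adjusted p 0.031 by limma). Those 3 genes hold the let-7 letters shown above. In P1 primary cells Arid3b was at 2.81 and 3.35 RPKM and Igf2bp1 at 4.19 and 5.03 RPKM, lower than at E16.5. The P1 line had 8.93 and 5.68 RPKM of Arid3b and 18.6 and 21.6 RPKM of Igf2bp1 (P20 and P80). Dusp9, a phosphatase that dampens ERK signalling, went from 62.4 and 56.3 to 16.9 and 21.6 RPKM in primary cells and was at 33.5 and 27.1 RPKM in the line against 48.0 to 92.1 RPKM (median 69.3) in the other lines.

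The 9 genes higher in both included Cited1, Pcp4, Tnc, Zfp36, Cpe, Cadps2 and Spats2l. Cited1 went from 68.5 and 47.0 RPKM at E11.5 to 320.0 and 349 RPKM at E16.5, a log2 difference of 2.21 ± 0.26 (SE) with an adjusted p of 0.0315 by limma. Cpe, an enzyme that trims peptide hormones, went from 21.3 and 21.8 to 38.8 and 39.1 RPKM in primary cells and was at 52.9 and 62.4 RPKM in the E16.5 line against 10.9 to 31.9 RPKM (median 23.1) in the other lines. The gene that went the other way was Gpc4, a heparan sulfate proteoglycan, which was lower in the line, at 8.65 and 8.79 RPKM against 9.05 to 19.5 RPKM (median 14.3), and higher in E16.5 primary cells, at 11.46 and 9.98 RPKM against 1.74 and 1.16 RPKM at E11.5.

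These primary counts depended on single libraries. The lower genes called lower fell to 0 without E11.5 primary library 1 or 2, E13.5 library 2 or E16.5 library 1, were 4 without E13.5 library 1, and were 20 to 26 without E16.5 library 2 or either P1 library. The higher genes called higher were 0 in the first 5 cases, 21 without either P1 library and 114 without E16.5 library 2. Without that last library 1 E16.5 library was left, and calls over all genes rose as well, most of them higher. Lower genes were then called in both directions, so these calls are not read as a result about them. The 2 E16.5 primary libraries differed in markers of other cells, with 167 and 3.14 RPKM of the epithelial keratin Krt19, 89.7 and 3.996 RPKM of the endothelial gene Emcn and 139.7 and 34.5 RPKM of Col1a1 in libraries 1 and 2, and the part of such cells in the calls was not tested. Direct closeness to the primary level was not a property of the genes taken by the rule, since the E16.5 line was nearer than the other lines to E16.5 primary cells in 54.7% of higher and 42.2% of lower genes, and in 52.4% of all genes.

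The 9 withdrawal libraries, from E13.5 cultures, gave another reading of the same genes, with the difference that they were total RNA. The E16.5 line lay above all 9 in 646 of the 1392 higher genes (46.4%), where it did so in 15.6% of all genes, and below all 9 in 371 of the 1070 lower genes (34.7%), where it did so in 10.2% of all genes. It lay below all 9 in 15 of the 23 lower genes at least 1 log2 unit beyond the range. Igf2 was at 498 to 1017 RPKM (median 665) in the 9 libraries, all above the 43.1 and 42.0 RPKM of the E16.5 line. Lin28a was at 0.357 to 43.3 RPKM (median 28.6), and the lowest value, after 8 days without LIF, was below the E16.5 line. These cultures share their E13.5 label with the E13.5 line, and the E16.5 values are the ones the rule used, so the shares are a description.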

How the data were processed

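RPKM values were deposited by the authors as a single sheet with a line for each gene symbol. The submitters' processing notes name STAR, Cufflinks and mm9 for the poly(A) libraries, without versions. The sources used here name no tools for the withdrawal libraries. RPKM divides by transcript length and mapped reads, so very abundant transcripts lower the values of all others. Of 23947 table lines, 2 with shifted values in 18 libraries and 27 with symbols turned into dates were left out. The shift fell on all P80 and no P20 lines, and on 1 primary library of each age compared.

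From these values log2(RPKM + 1) was taken, and genes reaching 1 RPKM in 2 or more of 8 libraries were tested, 12129 in lines and 13130 in primary cells. Differences were fitted with limma 3.58.1 in R 4.3.3 (moderated, with trend, two-sided, Benjamini-Hochberg adjustment, threshold 0.05), with passage as a term in lines and 1 mean per age in primary cells. On simulated data 79% of 100 genes changed by a log2 of 1 were recovered in lines (12129 genes) and 60% in primary cells (13130 genes). No label ties primary replicates to separate animals, so their spread, and with it each p-value, may be only technical. Whole reads could not be recovered, since only 42.9 to 73.3% of low values lay within 10% of a whole read, so no count test was run and depths are estimates.

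The members and gene lists were chosen with earlier results of these data known. Genes named were the first 15 higher and 15 lower by distance beyond the range with a mean RPKM of at least 5, up to 4 per list, and Pax2, Nr2f1, Fosb, Six2 and Cited1. Predicted and small RNA genes were passed over, and some genes that meet the rule are not reported here. Other genes given with values were chosen after those were seen. Of 98 genes so named, 14 overlap another gene of the table in the mm9 annotation. Alternatives were other pseudocounts, filters, scalings and fits, and leaving out each library.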

Additional observations from a re-analysis of the deposited data

Results flagged for a closer look

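In 3 of 32 named genes looked at, the P1 line at P20 lay far from the other 5 of the 6 other line libraries, measured as its gap to the nearest of them divided by the whole range of the 6. Chance alone marks about 1 in 20 such groups. The ratio was 0.917 for C1ql4, 0.873 for Fosb and 0.651 for Mmp12, and in each the P1 line at P20 was the highest of the 6 and lay towards the E16.5 line. The estimated depth of this library, 6.5 M reads, was the lowest of the 8, and its part in these values was not tested.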

How the results depend on the processing

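Of 176 recomputed counts and shares, 103 stayed within 1.5 times the main value. Genes above the range were 902 with a mean RPKM of at least 5, and 12 and 23 lay at least 1 log2 unit above and below it (178 and 103 without the P1 line at P20). Leaving out 1 library gave 1432 to 2932 above and 1087 to 2640 below, the most without an E16.5 library, since 1 library then has to lie outside. The limma calls in lines were 95 higher without a filter, 18 higher at a mean RPKM of at least 5, 25 lower with no replicate block (no passage term), 5 and 11 with line averages, and 346 and 254 with all 16 libraries. They ran from 1 to 1411 higher and 4 to 1000 lower with 1 library left out, where the largest were without the P1 line at P20. Of genes at least 2 log2 units below at P20, 41.7% were again below at P80, and leaving out 1 library gave 62.7 to 93% for higher and 64.5 to 86.8% for lower genes.

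In primary cells the calls higher and lower were 5 and 1 with a pseudocount of 0.1, 1 and 2 without a filter, 1 and 0 at a mean RPKM of at least 5, 55 and 15 against E11.5 and E13.5 only, and 1 to 151 and 0 to 9 with 1 library left out, the most without E16.5 library 2. Library numbers did not pair the samples (correlations of deviations -0.0814 to 0.399), and with the replicate block 2 genes were called lower and 0 of them were members. The 1 lower member called became 0 without a filter, at the higher filter, with quantile scaling, at the distance of 1 log2 unit and without the P1 line at P20 at that distance, and was 0 to 2 with 1 library left out. Higher members called ran from 0 to 19, lower members called higher from 0 to 13, both highest without E16.5 library 2. Against E11.5 and E13.5 only, 9 higher and 8 lower members were called in the same direction and 1 in the opposite one. For Six2, within the range throughout, the log2 difference of 0.0237 turned to -0.0059 with trimmed-mean factors, -0.0463 with quantile scaling, -0.0353 without the E13.5 line at P20, -0.0101 without the E16.5 line at P80 and -0.0145 without the P1 line at P20, and reached 0.0633 without the P1 line at P80. Of 1274 values for single genes in lines, 1246 moved by less than 1 SD, 23 by more, and the 5 of Six2 changed sign. The causes of these changes were not tested beyond what each setting leaves out.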
